A study of Mus musculus with 5 samples.

Results

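The teratoma labelled P5_a2iL_1, written P5_a2iL from here, was compared with the teratoma labelled P5_2iL_F by taking the methylation level of the first minus that of the second. These are 2 of the 5 libraries of the series. The values used were those of 3880838 cytosines listed in both files, 193773 tiles of 1000 bp with 5 or more of them, and 15283 gene ends with 3 or more. The assay was reduced representation bisulfite sequencing, in which CpG cytosines are read mainly where CpGs are frequent. All 5 libraries came from mice of strain C57BL/6x129S6. The 4 teratomas followed injection of cultured embryonic stem cells into tetraploid embryos, and the labels name the culture as P5_2iL, P5_2iL_F, P5_a2iL_1 or P5_LCDM_1 without spelling these names out. Muscle is labelled as the control. Each group holds 1 library, the labels used here give no age, sex or number of animals, and they do not say whether a teratoma was sampled in 1 piece. Every difference is therefore one between 2 libraries, with no replicate and no test, and not one between culture conditions.

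A teratoma is a tumour of pluripotent cells that holds many differentiated tissues. In mammals most isolated CpGs are methylated, dense clusters of CpGs at gene starts are mostly not, and CpG-poorer starts and enhancers lose methylation in the lineage that uses them. Imprinted control regions carry methylation on the copy from one parent and keep it in body tissues. A methylation level in bulk tissue is a mean over all cells, so a different share of a cell type and a different level within cells cannot be told apart here, and no cell type is named from a level.

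A gene end was the end of a protein coding gene with more shared cytosines, with the window reaching 1000 bp beyond the gene and 500 bp into it. It can be the 3′ end. Of the 30 gene ends with the largest differences called on each strand, 24 had an annotated start, and 13 of their windows held it. For genes without an annotated start, which end was read is not known here. Among those described below, these include Cebpe, Nnmt, Tns4, Krt80, Peg10, Sgce, Tagln, Plvap and Spi1. A window or tile was called where the mean levels differed by 25 percentage points or more. The sequences below are 300 bases around the annotated start, from RefSeq on GRCm38.p6, the same build as mm10, 5′ to 3′ on the gene's strand, for 4 genes whose called window held that start and which are described below. Capitals mark CpGs with a cytosine listed in both libraries, and only these CpGs are counted as read below.
Wfdc2, chr2:164562465-164562764, + strand: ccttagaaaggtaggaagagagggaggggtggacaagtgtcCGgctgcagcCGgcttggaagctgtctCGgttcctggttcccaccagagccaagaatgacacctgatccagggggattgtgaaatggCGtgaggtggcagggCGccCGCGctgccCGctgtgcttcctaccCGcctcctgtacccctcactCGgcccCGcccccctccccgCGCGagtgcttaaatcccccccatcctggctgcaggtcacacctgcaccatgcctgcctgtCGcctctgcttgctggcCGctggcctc
Gjb5, chr4:127358115-127358414, - strand: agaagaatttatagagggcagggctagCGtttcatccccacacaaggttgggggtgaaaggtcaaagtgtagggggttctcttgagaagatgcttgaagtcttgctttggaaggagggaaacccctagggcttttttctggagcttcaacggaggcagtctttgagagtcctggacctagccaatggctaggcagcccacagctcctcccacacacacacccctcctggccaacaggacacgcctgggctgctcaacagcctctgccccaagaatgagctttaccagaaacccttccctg
Plet1, chr9:50494275-50494574, + strand: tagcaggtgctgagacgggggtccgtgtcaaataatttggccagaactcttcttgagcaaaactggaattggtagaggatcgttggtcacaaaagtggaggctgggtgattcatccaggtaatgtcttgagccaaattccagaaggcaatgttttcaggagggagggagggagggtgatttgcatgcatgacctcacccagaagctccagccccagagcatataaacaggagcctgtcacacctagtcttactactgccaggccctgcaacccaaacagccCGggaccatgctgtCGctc
Ngp, chr9:110419558-110419857, + strand: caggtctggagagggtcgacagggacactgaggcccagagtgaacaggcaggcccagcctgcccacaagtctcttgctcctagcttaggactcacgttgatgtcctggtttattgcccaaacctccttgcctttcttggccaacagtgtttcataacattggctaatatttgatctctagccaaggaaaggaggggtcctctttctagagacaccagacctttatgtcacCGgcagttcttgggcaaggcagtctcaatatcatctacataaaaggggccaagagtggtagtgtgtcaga

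In the Wfdc2 promoter 15 of 16 CpGs were read, and the mean over 27 shared cytosines was 18.3% in P5_a2iL and 87.1% in P5_2iL_F. P5_a2iL was below P5_2iL_F at 24 of these cytosines and equal at 3. In the Gjb5 promoter 1 of 3 CpGs was read, 222 bases before the start, and its cytosines were listed at 0% in P5_a2iL and 100% in P5_2iL_F. In the Plet1 promoter 2 of 5 CpGs were read. Its 3 shared cytosines had means of 22.2% and 66.7%. In the Ngp promoter 1 of 3 CpGs was read in both libraries, at 60% in P5_a2iL and 14.3% in P5_2iL_F. P5_a2iL also listed the cytosines 233, 155 and 19 bases before the start, each at 100%, which P5_2iL_F did not list. The median promoter of the table holds 7 CpGs, so that of Wfdc2 is CpG-richer than most and the other 3 are poorer. Cytosines of a promoter share reads and are not replicates of each other.

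The files listed 4446459 cytosines in P5_a2iL and 5323090 in P5_2iL_F, with a percent for each and no read count, so depth and counting error are unknown. The only available error was the spread between the 2 strands of a CpG, which was 17.6 points (SD per cytosine) in P5_a2iL and 15.4 points in P5_2iL_F. Between the strands of P5_a2iL alone 8.68% of 125907 tiles with 3 or more strand pairs were 25 points apart, and between those of P5_2iL_F 4.07%. Between opposite strands of the 2 libraries the shares were 10.4% and 10.5%. A tile call on 1 strand is thus only slightly more frequent between the libraries than within P5_a2iL. Of 3475 tiles higher in P5_a2iL on the top strand the median difference was 33.3 points there and 12 points on the bottom strand. Of 8022 tiles lower on the top strand the medians were -33.3 and -11.8 points. The bottom strand passed 25 points in the same direction in 31.2% of the higher and 23.8% of the lower ones. Over all tiles with pairs the bottom strand passed as higher in 2.75% and as lower in 6.38%. Genes named below as called on each strand passed the rule on either strand separately.

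P5_a2iL was slightly less methylated than P5_2iL_F, and the difference lay in CpG-poor DNA. Over 3774038 shared autosomal cytosines the mean level was 47.8% in P5_a2iL and 50.2% in P5_2iL_F, a difference of -2.42 points. It was negative on all 19 autosomes, from -2.72 to -2.20 points. Of 2284 bins of 1 Mb with 20 or more tiles, 2233 (97.8%) were lower in P5_a2iL, with a median of -4.08 points.

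CpG density, the number of listed cytosines within 100 bp, ordered the difference. Under 5 neighbours the mean was 74.6% in P5_a2iL and 79.1% in P5_2iL_F, a difference of -4.58 points. With 5 to 14 neighbours the difference was -3.26 points, and with 15 to 29 it was -0.53 points. With 30 or more, in the densest CpG clusters, the level was 3.59% against 3.26%, a difference of +0.32 points. Cytosines in gene end windows averaged 6.60% and 6.66%. Gene bodies differed by -2.57 points and DNA outside protein coding genes by -3.96 points. The mean difference was therefore near 0 in the densest CpG clusters and in gene end windows. Sorted by level instead, the 32713 tiles at 20% or less in P5_2iL_F had a mean difference of +3.38 points and a median of +0.20. Those at 80% or more had a mean of -6.51 and a median of -4.30 points. Sorting by the P5_2iL_F level itself favours these directions.

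**Figure D1:**
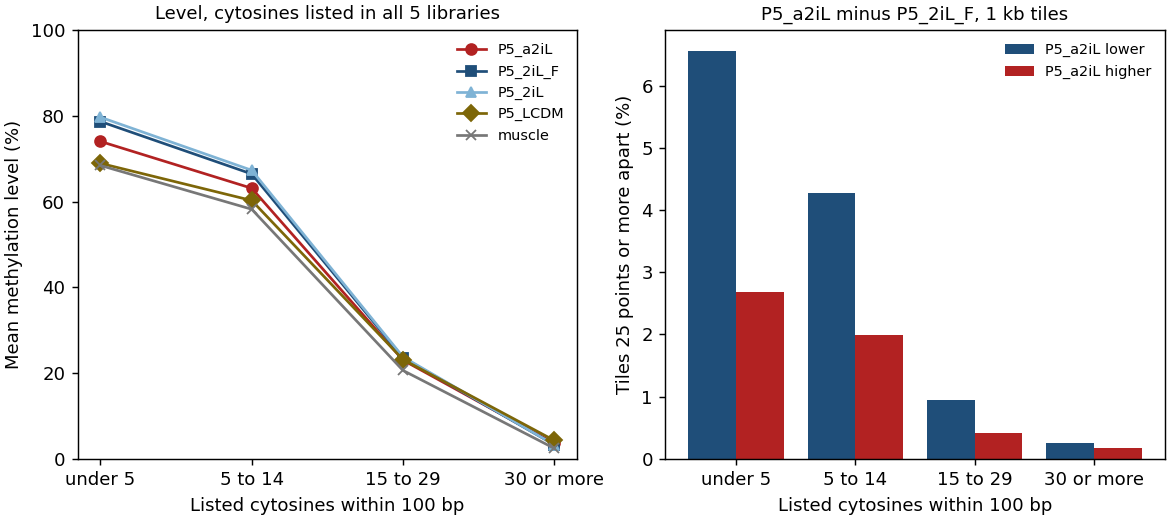
Left, mean methylation level in percent against CpG density (listed cytosines within 100 bp) over cytosines listed in all 5 libraries, 1 line per library; right, percent of 1 kb tiles called lower (blue) and higher (red) in P5_a2iL than in P5_2iL_F in the same density classes. Under 5 neighbours P5_a2iL lies below both 2iL teratomas and above P5_LCDM and muscle, and 6.57% of tiles are lower against 2.68% higher.

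Single cytosines showed the same in classes. Cytosines at 80% or more made up 38.3% of those in P5_a2iL and 44.1% in P5_2iL_F, while those between 20% and 80% made up 19% and 13.1%. Of the cytosines at 80% or more in P5_2iL_F, 20.7% were between 20% and 80% in P5_a2iL and 2.96% were at 20% or less. Cytosines at 20% or less were as frequent in P5_a2iL (42.7%) as in P5_2iL_F (42.8%) within 0.1 points. P5_a2iL thus had more intermediate and fewer full levels. Its strand spread was also the larger one, as given above, and the part of that in the classes was not tested.

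Of 193773 tiles, 9296 (4.8%) were lower in P5_a2iL and 4024 (2.08%) were higher. Between P5_2iL_F and P5_2iL 3570 of 199401 tiles (1.79%) were called in either direction, against 6.87% here. The strand spread was 14.5 points in P5_2iL and 17.6 points in P5_a2iL, and its part in these shares was not tested. The lower tiles had a median of 87.8% in P5_2iL_F and 52.4% in P5_a2iL, and the higher ones 27.1% and 67.8%. Called on each strand were 1908 tiles lower (1.52%) and 1085 higher (0.862%) of the 125907 with pairs, while 387 (0.307%) passed 25 points on the strands in opposite directions.

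**Figure D2:**
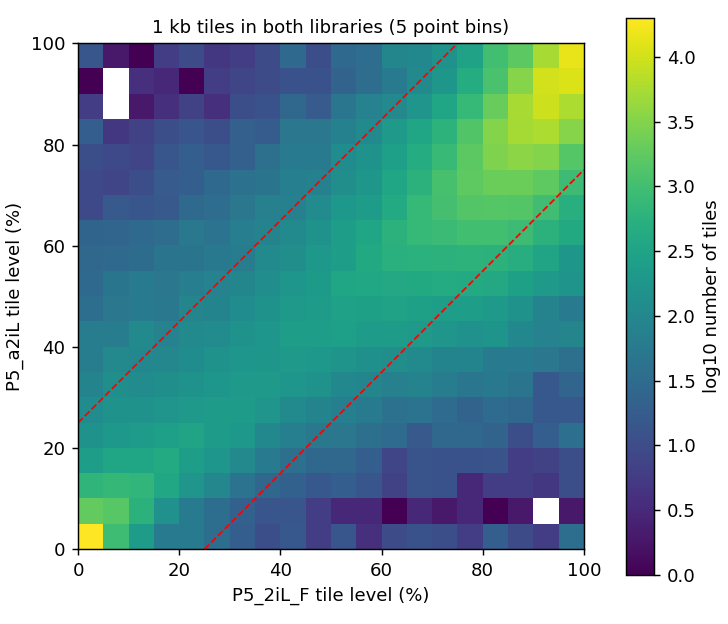
Methylation level in percent of 1 kb tiles in P5_a2iL (vertical) against P5_2iL_F (horizontal) in bins of 5 points, coloured by the log10 number of tiles; dashed lines mark differences of 25 points. Tiles gather at the fully methylated and unmethylated corners, and 9296 lie below the lower line against 4024 above the upper one.

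Most gene ends had near-equal levels in the 2 teratomas. Of 15283 gene ends 137 (0.896%) were higher in P5_a2iL and 255 (1.67%) were lower, and the median difference was -0.02 points. The 255 lower ones lie in 242 windows of distinct coordinates, since neighbouring genes can share one. Windows offset by some bases count separately even where they hold the same cytosines, so separate sites are fewer in either direction. In either direction 392 (2.56%) were called, most of them at CpG-poor ends. Under 5 neighbours 63 of 1656 ends were higher and 136 lower, and at 30 or more 2 of 3392 were higher and 1 lower. On each strand separately 42 of 13404 gene ends with 3 or more pairs were higher (0.313%) and 45 lower (0.336%), so the excess of lower calls was small where each strand had to pass. Just inside the threshold lay Thrsp with +25 points, Gm1070 with +25.6 and Tmc6 with +25.8, and just outside Lmo2 with +24.2, Zfp13 with +24.8 and Cdhr5 with +24.9. On the lower side Vmo1 (-25.1), St6galnac2 (-25.2) and Hba-x (-25.3) were inside, and Lgals1 (-24.8), Vkorc1 (-24.9) and Spo11 (-24.9) outside.

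Most called genes on the epithelial lists and among the keratins were lower in P5_a2iL, with Cldn6 and Krt34 higher. On a list of 70 squamous and surface epithelium genes, written after tile and gene values had been seen, 12 of 52 measured ends were lower and 0 higher, with a median of -4.65 points. Over all gene ends 1.67% were lower and 0.896% higher, and the median was -0.02 points. CpG-poor ends were called more often, with 8.21% lower under 5 neighbours and 3.10% lower with 5 to 14. Of the 12, 7 passed on each strand. Their median level was 83.8% in P5_2iL_F, 81.2% in P5_2iL, 62.0% in P5_LCDM, 53.6% in muscle and 37.1% in P5_a2iL. Because the list was made from called genes in part, its count describes these libraries only. Slc26a9, a transporter gene outside the epithelial lists, was higher on each strand, with 64.2% in P5_a2iL and 27.9% in P5_2iL_F over 11 cytosines. Of 286 Slc transporter ends 4 were higher and 4 lower (1.40% each).

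Vill, which encodes a villin-like actin-binding protein, had the largest difference among the named gene ends. Its start window, chromosome 9 from 119051729 to 119053229, held 8 shared cytosines and stood at 6.25% in P5_a2iL, 89.6% in P5_2iL_F, 82.1% in P5_2iL, 12.5% in P5_LCDM and 0% in muscle. The 2iL teratomas were high and the other 3 libraries low. Gjb5, a connexin of skin and placenta whose promoter is printed above, stood at 20% in P5_a2iL, 95% in P5_2iL_F, 80% in P5_2iL, 27% in P5_LCDM and 23.3% in muscle over 10 cytosines. Over the 5 of these listed in all libraries its difference was -50 points.

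Wfdc2, a secreted protein of airway and reproductive tract epithelium, was read at 40 cytosines on chromosome 2 from 164561715 to 164563215. Its level was 21.5% in P5_a2iL, 78.7% in P5_2iL_F, 50.2% in P5_2iL, 26.7% in P5_LCDM and 5.32% in muscle. P5_a2iL was below P5_2iL_F at 35 of the 40 cytosines and above it at 2. Plet1, a surface protein of placental and epithelial progenitor cells, was low in P5_a2iL and high in the other 4 libraries. Over 20 cytosines it stood at 30.2% in P5_a2iL, 91.4% in P5_2iL_F, 80% in P5_2iL, 96.7% in P5_LCDM and 88% in muscle. Over the 10 of these listed in all 5 libraries its difference was -32.5 points.

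Tns4, a tensin of epithelial adhesions, was also lowest in P5_a2iL, with 40.4% in P5_a2iL and 77.6% to 90.7% in the other 4 libraries over 18 cytosines. Krt80, a type II keratin, stood at 33.9% in P5_a2iL, 82.1% in P5_2iL_F, 90.1% in P5_2iL, 81.0% in P5_LCDM and 45.8% in muscle over 14 cytosines. Cldn4, a tight junction claudin, stood at 43.2% in P5_a2iL and 77.9% in P5_2iL_F over 12 cytosines. These 3 were called on each strand. Cldn6, a claudin of embryonic epithelium, went the other way with 76.7% in P5_a2iL and 10% in P5_2iL_F, but over 5 cytosines without strand pairs. Of 38 keratin ends 3 were lower (7.89%) and 1 higher (2.63%), the latter being Krt34 over 4 cytosines. Of 35 genes on a broader endoderm and epithelium list 2 were lower (5.71%) and 1, Cldn6, was higher (2.86%), with a median of -0.44 points. Over all gene ends 1.67% were lower and 0.896% higher, and the shares of these 2 groups rest on 1 to 3 genes each.

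**Figure D3:**
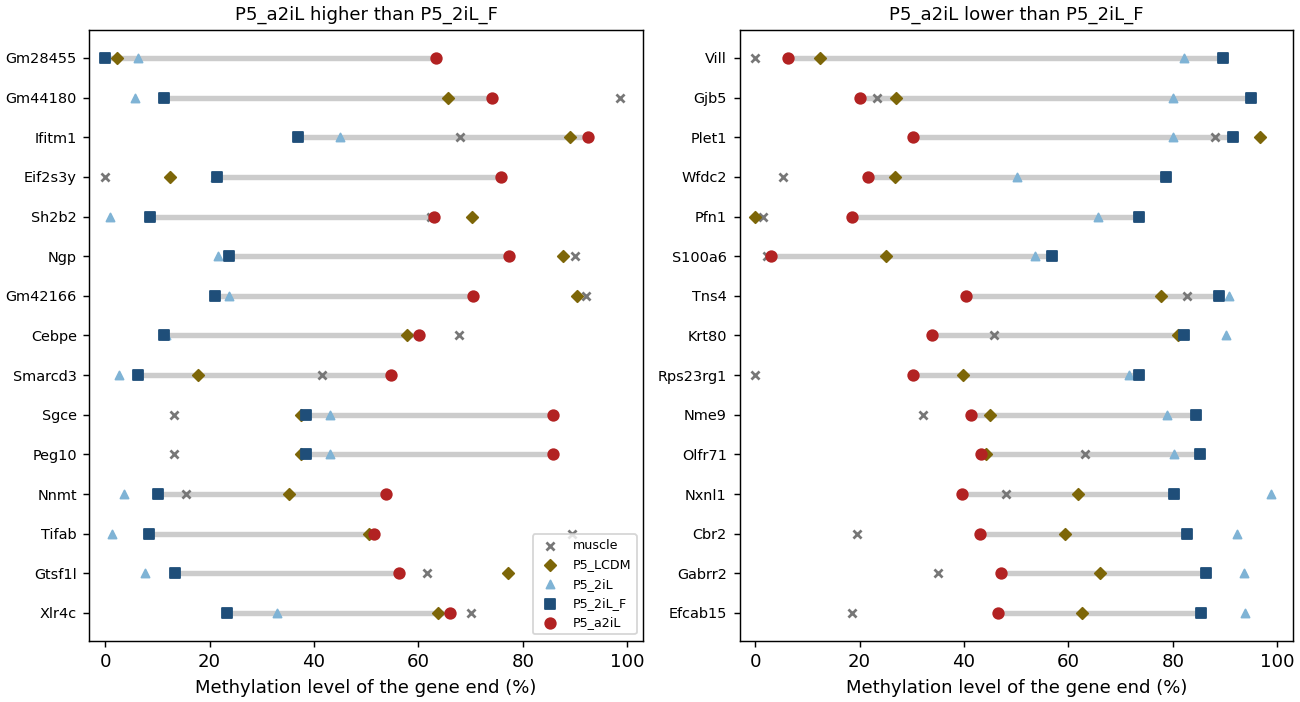
Methylation level in percent of the 15 gene ends with the largest differences in each direction among those called on each strand, in all 5 libraries; grey bars join P5_2iL_F and P5_a2iL. The P5_2iL values lie on the side of P5_2iL_F at all 30 gene ends, while P5_LCDM and muscle lie on either side.

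Listed genes of granulocytes and other myeloid cells were called in either direction, and the listed ones called on each strand were higher in P5_a2iL. On a list of 75 such genes, also written after values had been seen, 9 of 40 measured ends were higher in P5_a2iL (22.5%) and 4 were lower (10%), beside 0.896% and 1.67% of all gene ends, with a median of +6.44 points. CpG-poor ends were called more often, with 3.80% higher and 8.21% lower under 5 neighbours, and 1.83% and 3.10% with 5 to 14. The share of lower ends on the list is close to that under 5 neighbours. As the list was made from called genes in part, the shares describe these libraries only. Of the 9, 6 passed on each strand, and of the 4, 0 did. The 9 higher ends had a median of 60.1% in P5_a2iL, 18.6% in P5_2iL_F, 11.7% in P5_2iL, 50.6% in P5_LCDM and 67.8% in muscle, so the 2iL teratomas were the low ones. Il4i1, grouped by name with the interleukins and not on the list, was lower on each strand, with 50.8% in P5_a2iL and 84.5% in P5_2iL_F. Its window does not hold the annotated start. Of 43 interleukin and receptor ends 2 were lower (4.65%) and 0 higher. Tiles of the leukocyte genes Snx20 and Rasal3, described below, were also lower on each strand.

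Ngp, a protein stored in neutrophil granules, had 12 shared cytosines on chromosome 9 from 110418808 to 110420308, and P5_a2iL was above P5_2iL_F at all 12. Its level was 77.3% in P5_a2iL, 23.8% in P5_2iL_F, 21.6% in P5_2iL, 87.7% in P5_LCDM and 90.1% in muscle. Cebpe, a transcription factor of late granulocyte maturation, was read at 45 cytosines, with P5_a2iL above at 38 and below at 1. It stood at 60.1% in P5_a2iL, 11.3% in P5_2iL_F, 11.7% in P5_2iL, 57.9% in P5_LCDM and 67.8% in muscle. The 2iL teratomas had near-equal low levels at both genes.

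Tifab, a regulator of innate immune signalling, stood at 51.5% in P5_a2iL and 8.36% in P5_2iL_F, with 89.4% in muscle, over 20 cytosines. Tnfsf14, a cytokine of the tumour necrosis factor family, stood at 33.6% and 4.94% over 31 cytosines. Fcgr4, an Fc receptor of myeloid cells, stood at 76.6% and 29.2% over 8 cytosines, and Havcr2, the checkpoint receptor TIM-3, at 56.2% and 3.33% over 5. Arhgap30 stood at 44.6% and 0% over 7 cytosines. The last 3 had too few strand pairs to be checked on each strand. The Havcr2 window does not hold the annotated start.

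Other blood genes went the opposite way. Spi1, the myeloid and B cell factor PU.1, was read at 36 cytosines at its gene end on chromosome 2 from 91115259 to 91116759. It stood at 40.9% in P5_a2iL, 71.5% in P5_2iL_F, 95.9% in P5_2iL, 51.6% in P5_LCDM and 33.3% in muscle. Within the Spi1 body 3 of 8 tiles were higher in P5_a2iL and 1 lower, so end and body differed in direction. Tnf, the inflammatory cytokine, stood at 47.2% in P5_a2iL and 87.6% in P5_2iL_F over 6 cytosines. Neither gene end passed on each strand. That of Tnf does not hold its annotated start, and for Spi1 no annotated start was available to place its window. On the blood and immune list of 53 genes 4 of 34 measured ends were higher (11.8%) and 3 lower (8.82%), with a median of +1.99 points. Over all gene ends these shares were 0.896% and 1.67%, and under 5 neighbours 3.80% and 8.21%. Ends of Vav1 and Itgb2, which mark leukocytes, were 11.7 and 12.7 points higher in P5_a2iL, and that of Rac2 had a difference of -15.6 points, all short of the rule. Blood cells in either tumour were not counted, and their part in these differences was not tested.

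**Figure D4:**
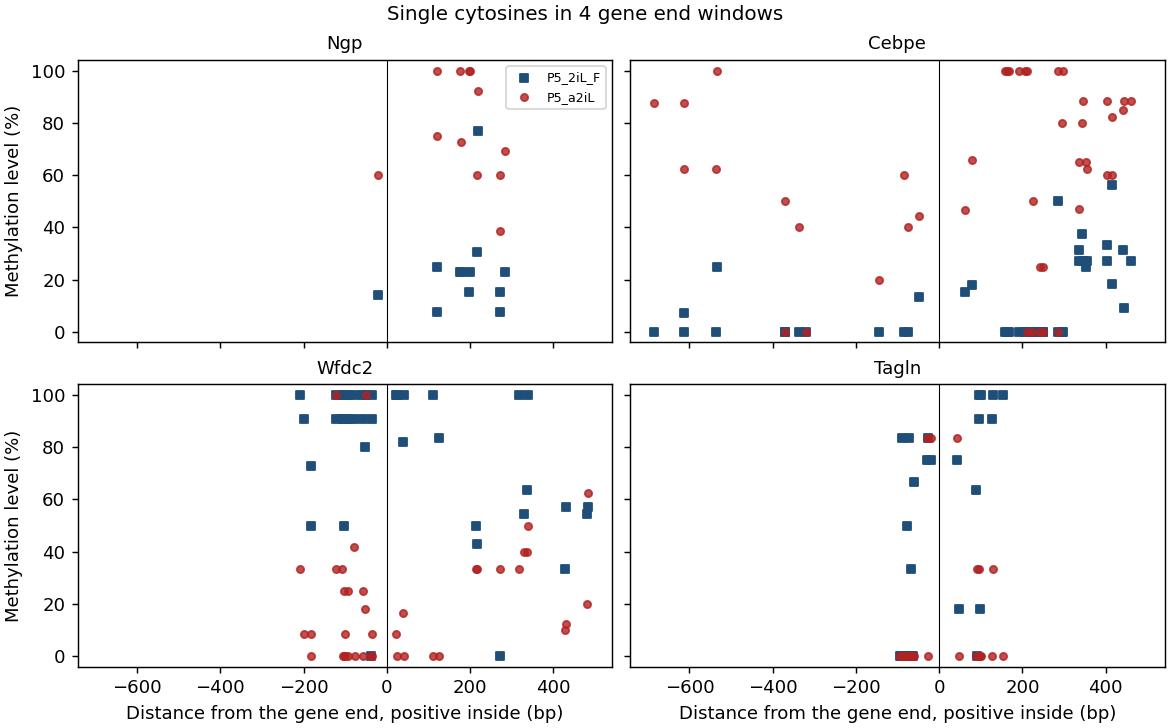
Methylation level in percent of single cytosines in P5_a2iL (circles) and P5_2iL_F (squares) in the gene end windows of Ngp, Cebpe, Wfdc2 and Tagln, against distance from the gene end in bp, positive inside the gene. At Ngp and Cebpe most P5_a2iL cytosines lie above those of P5_2iL_F, and at Wfdc2 and Tagln most lie below.

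Genes of contractile tissue were lower in P5_a2iL where they were called. Tagln, the smooth muscle actin-binding protein transgelin, stood at 14% in P5_a2iL, 52.3% in P5_2iL_F, 67.5% in P5_2iL, 21.7% in P5_LCDM and 5.26% in muscle over 25 cytosines, and passed on each strand. P5_a2iL was listed at 0% at 19 of the 25 cytosines and P5_2iL_F at 7. Lmod3, a leiomodin of the sarcomere thin filament, stood at 56.3% in P5_a2iL, 86.9% in P5_2iL_F and 4.64% in muscle. Mamstr, a coactivator of MEF2 factors, stood at 64.4%, 94.2% and 15.4%. Neither passed on each strand, and with a narrower window, 500 bp beyond the gene and 250 bp into it, Lmod3 (-23.2 points) and over cytosines listed in all 5 files Mamstr (-19 points) were no longer called. Myh6, the atrial myosin heavy chain, stood at 64.6% and 91.1%, but over the 4 of its 13 cytosines listed in all 5 files it was +6.27 points. The Myh6 window does not hold the annotated start.

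Over all gene ends 1.67% were lower, beside 8.21% of those under 5 neighbours and 3.10% of those with 5 to 14. On the skeletal muscle list 2 of 34 measured ends were lower (5.88%) and 0 higher, with a median of -2.46 points, and on the heart and smooth muscle list 2 of 20 were lower (10%) and 0 higher, with a median of -0.20 points. Among markers of skeletal muscle, Acta1 and Ckm differed by -10.1 and -9.33 points, Mb by -2.15 and Myod1 by +2.50 points. None of these 4 reached the rule.

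The called imprinted genes were higher in P5_a2iL. Of 40 measured ends 3 were higher (7.5%, beside 0.896% of all gene ends) and 0 lower, with a median of +0.17 points. They lie at 2 sites. Peg10, a retrotransposon-derived gene expressed from the paternal copy, and Sgce, the adjoining paternally expressed ε-sarcoglycan gene, share 1 stretch of 49 cytosines on chromosome 6 between 4746306 and 4748204 and count as 1 site. Its level was 85.7% in P5_a2iL, 38.5% in P5_2iL_F, 43.1% in P5_2iL, 37.6% in P5_LCDM and 13.1% in muscle. P5_a2iL stood apart from all 4 other libraries. The strand differences over 8 pairs were +25.2 and +39.4 points.

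Ndn, a MAGE family gene expressed from the paternal copy, stood at 47.1% in P5_a2iL, 20.03% in P5_2iL_F, 26.0% in P5_2iL, 24.8% in P5_LCDM and 10.5% in muscle over 28 cytosines. It had +24.5 and +26.5 points on the strands. Its neighbours Magel2 (42.5% and 23.3%) and Mkrn3 (34.5% and 25.7%) were higher without reaching the rule. Igf2r stood at 44.3% and 35.5% over 173 cytosines. Nap1l5 (64.2% and 74.9%) and Gnas (54.9% and 63.5%) were lower in P5_a2iL. Imprinted ends short of the rule thus lay on both sides of 0.

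Other named ends higher in P5_a2iL had varied functions. Smarcd3, a subunit of the SWI/SNF remodeller known from heart and muscle, stood at 54.8% in P5_a2iL, 6.24% in P5_2iL_F, 2.72% in P5_2iL, 17.8% in P5_LCDM and 41.6% in muscle over 67 cytosines. Nnmt, which methylates nicotinamide, stood at 53.8% and 10.1%, and Sh2b2, an adaptor of receptor tyrosine kinases, at 63% and 8.65%. Ifitm1, an interferon-induced membrane protein, stood at 92.5% and 36.9% over 8 cytosines. At these 4 genes P5_2iL was within 9 points of P5_2iL_F. The windows of Smarcd3, Sh2b2 and Ifitm1 do not hold the annotated start, and for Nnmt none was available.

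On the sex chromosomes, Eif2s3y, the Y-linked gene of a translation initiation factor subunit needed in spermatogenesis, stood at 75.8% in P5_a2iL, 21.4% in P5_2iL_F, 21.0% in P5_2iL, 12.5% in P5_LCDM and 0% in muscle over 16 cytosines. Xlr4c, of the X-linked lymphocyte-regulated family, stood at 66.1% and 23.4%. It belongs to a family of near-identical copies, so its reads may come from more than 1 of them. The predicted gene Gm28455 stood at 63.3% in P5_a2iL and at 0% to 6.30% in the other 3 teratomas. Gm44180 and Gm42166, also predicted, stood at 74.1% against 11.2% and at 70.5% against 21.0%, at ends that do not hold their annotated start. Gtsf1l, related to a gametocyte factor, stood at 56.3% and 13.5%, but at its annotated start, read at 4 cytosines, the difference was 0.

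Named ends lower in P5_a2iL also included genes that are not epithelial. Pfn1, the actin monomer-binding protein profilin, stood at 18.6% in P5_a2iL, 73.5% in P5_2iL_F, 65.7% in P5_2iL, 0% in P5_LCDM and 1.47% in muscle, at an end that does not hold its annotated start. S100a6, a calcium-binding protein, stood at 3.03% and 56.8%, also away from its annotated start, where the difference was -38.9 points, and in the narrower window it was -84.5 points. Rps23rg1, a retrogene of a ribosomal protein, stood at 30.2% and 73.5%, and Cbr2, a carbonyl reductase of lung, at 43.1% and 82.8%. In the 300 bases around its start, Cbr2 had 1 shared cytosine, with 64.7% in P5_a2iL and 63.0% in P5_2iL_F, so no lower level was seen there. Reads of a retrogene can be hard to place. Nme9, Olfr71, Nxnl1, Gabrr2 and Efcab15 stood between 39.6% and 47% in P5_a2iL and between 80.2% and 86.4% in P5_2iL_F. The windows of Nme9, Gabrr2 and Efcab15 do not hold the annotated start. For Efcab15 the difference at the annotated start was -10.7 points.

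Vessel and connective tissue genes were called in either direction. Eng, the endothelial TGF-beta coreceptor endoglin, stood at 42.8% in P5_a2iL, 8.28% in P5_2iL_F, 4.26% in P5_2iL, 4.63% in P5_LCDM and 33.7% in muscle, but did not pass on each strand and was +19 points in the narrower window. Plvap, a protein of endothelial pores, stood at 40.6% and 72.3% and passed on each strand, with -24.9 points in the narrower window. On the endothelium list 1 of 17 ends was higher and 1 lower (5.88% each, beside 0.896% and 1.67% of all gene ends). Pecam1, a junction protein of endothelium, stood at 76.0% and 53.6% without reaching the rule. Col3a1, a fibrillar collagen, stood at 65.6% and 98.2% over 8 cytosines and was -15.2 points over those listed in all 5 files. Cnmd, the cartilage protein chondromodulin, stood at 84.8% in P5_a2iL, 56.8% in P5_2iL_F and 87.7% in P5_2iL. It passed on each strand, but was at +22 points when the strands of each CpG were averaged first.

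Germline gene ends were called in either direction. Of 43 measured ends 2 were lower (4.65%) and 1 higher (2.33%), beside 1.67% and 0.896% of all gene ends, with a median of -3.18 points, and the median level was 79.3% in P5_a2iL and 87.9% in P5_2iL_F. Zar1l, an oocyte gene, stood at 23.3% and 88.9%, and Piwil1, a piRNA-binding protein of the testis, at 59.9% and 87.9%, each over 5 cytosines. Dmrtb1, a regulator of the entry into meiosis in the testis, was higher, with 55.2% and 25.7% over 25 cytosines and on each strand, and by +50 points in the narrower window. The windows of Piwil1 and Dmrtb1 do not hold the annotated start.

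Few ends of developmental regulators and growth signals were called. Over all gene ends 1.67% were lower and 0.896% higher, so lists of this size would hold few or no calls at that share. Of 110 Polycomb-regulated developmental genes 1 was lower (0.909%). It was Lhx6, a LIM homeobox factor of interneurons, with 35.4% and 66.8% over 20 cytosines and on each strand. The Lhx6 window does not hold the annotated start. Of 30 pluripotency genes, 54 Wnt, TGF-beta and retinoid signalling genes and 23 genes of the methylation machinery, 0 were called, with list medians of +1.36, -0.02 and -0.12 points. Among 39 tumour suppressor genes Dapk1, a death-associated kinase, was the only one called, with 32.9% in P5_a2iL and 0.25% to 4.29% in the other 4 libraries over 70 cytosines of a dense CpG cluster. The strands disagreed on its size, with +41.4 and +10.7 points. Among 39 neural genes 1 was higher (2.56%). In liver, kidney and fat genes Slc12a3, the salt transporter of the kidney tubule, was higher on each strand, with 44.3% and 11%. A further 1 of the 21 was lower (4.76% in each direction). Syna, a placental syncytin, was the 1 lower of 15 trophoblast genes (6.67%), with 60.9% and 89.3% over 8 cytosines. Each of these last shares rests on 1 gene.

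**Figure D5:**
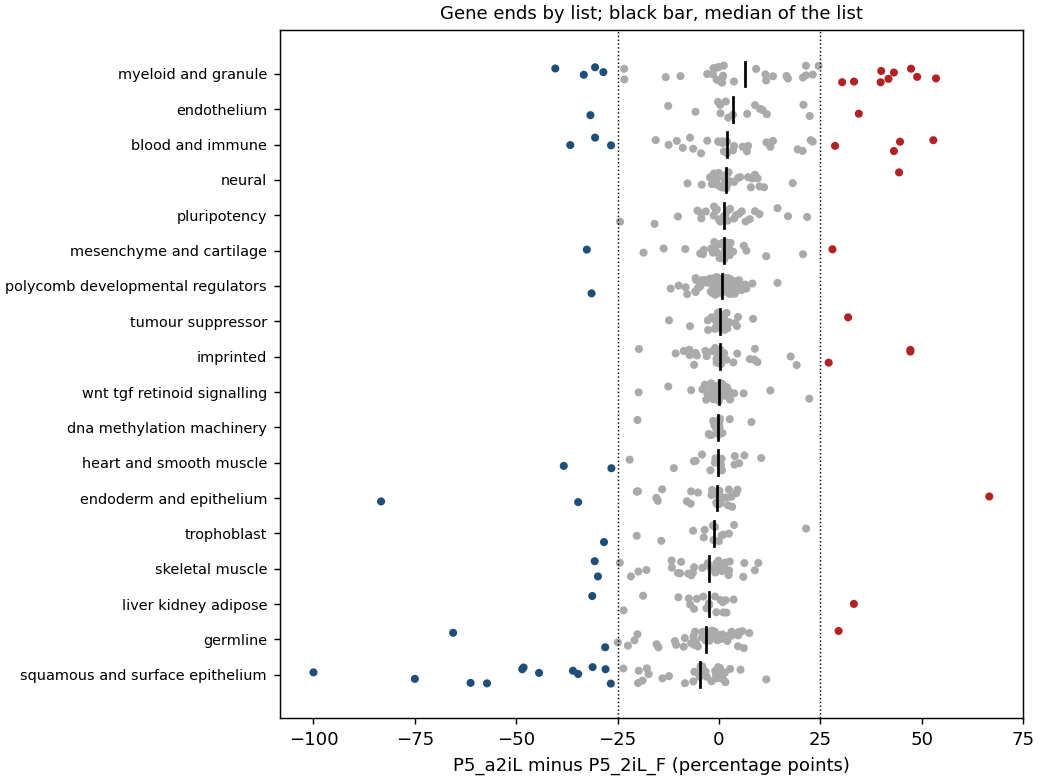
Difference in methylation level (P5_a2iL minus P5_2iL_F, in percentage points) of each measured gene end by gene list; dotted lines mark 25 points and black bars the list medians, from -4.65 (squamous and surface epithelium) to +6.44 (myeloid and granule). These 2 lists were written after values had been seen, in part from called genes. Called ends are red where higher and blue where lower, and most lists lie close to 0.

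Gene families named alike were set beside the 1.67% of all gene ends lower and the 0.896% higher. Of 102 olfactory receptor ends 12 were lower (11.8%) and 3 higher (2.94%), with a median of -6.46 points, but of these only Olfr71 passed on each strand. Many of them rest on 3 to 5 cytosines in CpG-poor DNA, where 8.21% of all gene ends were lower. Of 52 protocadherin ends 13 were lower (25%) and 1 higher. The called ends of the γ cluster genes, however, hold the same 31 cytosines at their common 3′ end, with 56.8% in P5_a2iL and 84.6% in P5_2iL_F. Of 37 Hox ends 0 were called, with a median of +0.36 points, and of 311 Zfp zinc finger ends 5 were lower (1.61%). Of 37 genes named as CD antigens 4 were lower (10.8%) and 2 higher (5.41%).

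Among tiles with 10 or more cytosines called on each strand, the largest away from gene ends differed by 79.7 to 98.7 points. Tiles read at fewer cytosines, or not called on each strand, can differ by as much. A tile within Oxa1l, which inserts proteins into the inner mitochondrial membrane, was at 0% in P5_a2iL, 98.7% in P5_2iL_F, 89.6% in P5_2iL, 54.3% in P5_LCDM and 8.59% in muscle over 11 cytosines. A tile in Hspg2, the basement membrane proteoglycan perlecan, stood at 15% and 95.2% over 20 cytosines, with 5.69% in muscle. A tile in Iqsec1, an ARF exchange factor, stood at 15.4% and 96.2% over 13 cytosines. The tile 102230 bp from Hibadh, a gene of valine breakdown, stood at 11.1% and 93.1%.

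In the other direction a tile in Fli1, an ETS factor of blood and endothelium, was at 100% in P5_a2iL, 15.9% in P5_2iL_F, 40.9% in P5_LCDM and 33.3% in muscle over 11 cytosines. A tile in Mtss1, an actin-binding scaffold, stood at 86.3% and 2.52% over 17 cytosines. Tiles in Tesc, a calcineurin-like calcium-binding protein, and Ctdspl, a small phosphatase, stood at 84.4% against 1.67% and 84.7% against 5%. A tile 47684 bp from Gnaq stood at 100% and 8.79%. These 9 tiles, and one that holds the Gjb5 cytosines described above, passed on each strand, as the choice required.

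Called tiles also formed runs of 3 or more neighbours in the same direction with gaps of at most 5 kb, looked for after the tiles had been seen. There were 36 lower runs and 19 higher ones, holding 113 and 58 tiles. The longest lay in Smyd3, a SET domain methyltransferase, where 5 tiles on chromosome 1 from 179039001 to 179045000 averaged 56.5% in P5_a2iL and 85.6% in P5_2iL_F. In Meis1, a homeobox factor of blood and limb development, 4 tiles on chromosome 11 from 19009001 to 19015000 with 102 cytosines averaged 53.2% in P5_a2iL, 13.2% in P5_2iL_F, 8.06% in P5_2iL, 41.9% in P5_LCDM and 16.3% in muscle. Ngp lay in a higher run of 3 tiles, as did Car2, the carbonic anhydrase of red cells and osteoclasts, with 53.1% and 10.5%.

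Lower runs included 3 tiles in Nupr1, a stress-response gene, with 30.8% and 93.3%, and 3 in Pmepa1, a TGF-beta target, with 25.6% and 91.7%. A run at Hoxb3 held 143 cytosines at 47.6% and 82.8%, although 0 Hox gene ends were called. Prdm16, a regulator of brown fat and blood stem cells, held a run of 4 tiles (47.0% and 81.8%) and one of 3 (49.1% and 79.9%). Fosl2, an AP-1 factor, held 4 tiles at 52.4% and 89.3%.

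Over gene bodies, 82.2% of the 4187 genes with 8 or more tiles had a mean below 0, with a median of gene medians of -2.12 points. Jdp2, an AP-1 repressor, was an exception with 4 of 9 tiles higher and a mean of 70.5% against 46.6%, and in Meis1 6 of 14 were higher. In Ddc, the enzyme that makes dopamine and serotonin, 5 of 8 tiles were lower and 1 higher, and in Nfib, a nuclear factor of lung and brain development, 5 of 11 were lower. These genes were taken as those with the highest share of called tiles.

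In the densest CpG clusters 10 of 6056 tiles were higher and 15 lower. Snx20, a sorting nexin of leukocytes, had the most cytosines among them, 170, and stood at 22% in P5_a2iL, 72.0% in P5_2iL_F, 82.7% in P5_2iL, 38.3% in P5_LCDM and 2.84% in muscle. Rasal3, a Ras regulator of blood cells, stood at 53.3% and 91.9% over 118 cytosines. Hmg20b, a partner of the LSD1 complex, was the highest in the other direction, with 64.4% and 15.9% over 99 cytosines. These 3 passed on each strand. Muscle was under 25% in 11 of the 15 lower tiles and had no value in the one within Zfp541. The 25 dense tiles were described after their values had been seen.

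The other libraries, which had no part in choosing the windows, were placed beside the calls. P5_2iL was nearer to P5_a2iL than to P5_2iL_F in 7.45% of the 8666 lower tiles with a value and in 18.7% of the 3675 higher ones, against 31.4% of all tiles. It was nearer to P5_2iL_F at all 30 named gene ends. P5_LCDM was nearer to P5_a2iL in 54.2% of the lower and 59.2% of the higher tiles, against 58.1% of all tiles, which is close to the background. Muscle was nearer to P5_a2iL in 67.7% of the lower and 67.3% of the higher tiles, against 58.5% of all. At gene ends muscle was nearer to P5_a2iL in 154 of 207 lower (74.4%) and 73 of 118 higher ones (61.9%) with a value, against 50.3% of all gene ends. P5_2iL was nearer to P5_a2iL at 8% of the lower and 10.2% of the higher ends, against 37.4% of all. P5_LCDM was nearer at 52.9% and 52%, against 51.0% of all.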

How the data were processed

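The authors deposited, for each library, the percent methylation of single CpG cytosines, 1 line per strand, and no numbers of reads. The tools named in the submitters' processing notes are Trim Galore 0.6.4 (a read trimmer) and Bismark (a bisulfite mapper and caller), and the build named there is mm10. What version of Bismark, which coverage minimum and what treatment of duplicates were used is not given here by any label or header. Levels here are means of this percent over cytosines listed in both libraries, each with equal weight. All listed positions inside RefSeq promoter sequences (490393) fell in a CpG when column 2 of the files was read as counted from 1. Isolated neighbouring positions were taken as the strands of a CpG. Genes came from a RefSeq table of GRCm38.p6 (21887 protein coding genes), of which 17492 had an entry giving the strand. Values of muscle, P5_2iL and P5_LCDM in a window are means over those of the same cytosines that the library lists, with 3 or more needed. With 1 library a side and no counts, no test, interval or coverage minimum was possible, and calls rest on the 25 point rule.

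Named gene ends are the 15 with the largest difference in each direction among those with 5 or more cytosines called on each strand (3 or more strand pairs), up to 4 called members of a list in each direction with 5 or more cytosines, and for tiles the 5 largest in each direction with 10 or more cytosines called on each strand. Some results that this rule selects are not reported here. Other genes, such as members short of the rule, those in runs, bodies and dense tiles, were chosen after their values were seen. The comparison, members and lists were chosen with earlier results of these data known, and the myeloid and the squamous epithelium lists after values of this comparison had been seen. Alternatives were other tile sizes, cytosine minimums, windows and cytosine sets. The code ran under Python 3.11.15 with pandas 2.3.3, NumPy 2.4.6 and, for plots, matplotlib 3.10.9, and was tested on simulated data.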

Additional observations from a re-analysis of the deposited data

How the results depend on the processing

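Lower tiles outnumbered higher ones under each alternative tried. The 4024 higher and 9296 lower tiles became 7671 and 17085 with 3 or more shared cytosines, 1627 and 3448 with 10 or more, 1245 and 2219 at 40 points, and 58 and 113 when only runs of 3 or more tiles counted, a setting chosen after seeing the data. With 500 bp or 2 kb tiles, strands averaged first, autosomes only, or cytosines listed in all 5 files they stayed within 1.5 times. The 137 higher and 255 lower gene ends became 68 and 115 with 10 or more cytosines and 44 and 62 at 40 points. With windows at the annotated start they were 99 and 138, over 11251 genes instead of 15283. Leaving aside the 2 lists written later, on which 25 of 92 members were called, 30 of the 560 measured list members were called, against 18 of 498 with 10 or more cytosines and 19 of 382 at the annotated start. All 30 named gene ends were called when strands were averaged first, and each of those measured was also called with 10 or more cytosines (27), over cytosines in all 5 files (28) and in the narrower window, 500 bp outside to 250 bp inside (25), but 17 of 19 at the annotated start. The mean level difference of -2.42 points was -4.11 when each tile had equal weight, which gives CpG-poor DNA more room. Of the other single genes 1 changed sign, Myh6, at +6.27 points over cytosines in all 5 files. No paired analysis was possible because each group holds 1 library, and for the same reason no library could be left out.

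Depth is unknown, so windows of few cytosines and few reads cannot be told from well-read ones. Strands of 1 library share its DNA and preparation, so their spread leaves out the spread between tumours and between preparations. The culture condition cannot be told apart from the single tumour that stands for it.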
